A study of Mus musculus with 6 samples.

Results

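Ribosomal protein mRNAs were followed in immortalized murine embryonic fibroblasts (MEF, fibroblasts grown out of mouse embryos) that were wild type (WT) or lacked TIA1 (TIA1 KO) or TIAR (TIAR KO). Probes were taken by gene name, as those of the cytoplasmic ribosomal proteins of the large (Rpl, with the P-stalk proteins Rplp) and small (Rps, with Rpsa) subunit. Ribosomal S6 kinases and pseudogene names were left out. This gave 84 genes and 189 probes of 34797 gene names and 55681 probes on the array. They comprised 43 large-subunit genes, 31 small-subunit genes, 3 P-stalk genes and 7 paralogues of core ribosomal proteins. Each group had 2 arrays, from independent samples, hybridized with RNA carrying 1 dye. The labels give the strain of the WT MEF as W4, of the TIA1 KO MEF as BALB/c and of the TIAR KO MEF as C57BL/6, so that strain and genotype cannot be told apart, nor either from the line itself. Each genotype was studied as cultured immortalized cells, and growth or treatment differences between the groups are not stated in the labels.

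The ribosome of animal cells is built from ribosomal RNA and a set of ribosomal proteins, whose mRNAs are among the most abundant in growing cells. Nearly all these mRNAs start with a C followed by an unbroken run of pyrimidines, the 5′ terminal oligopyrimidine (TOP) tract, through which their translation is switched on and off together by mTOR signalling and the TOP-binding protein LARP1. TIA1 and TIAR are RNA-binding proteins of stress granules that are known to associate with TOP mRNAs and to hold back their translation when amino acids are scarce. A microarray measures the amount of an mRNA and not its translation.

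The starts of these mRNAs are shown because the TOP tract is what places them under shared control. In RefSeq's annotation of GRCm38.p6, 75 transcript starts were found for 63 of the 84 genes. A tract, searched on the transcript's strand as a C followed by at least 4 pyrimidines, lay exactly at the annotated first base in 13 of these starts (17.33%), against 2.51% of the 32851 starts of all genes. Within 10 bases of the first base it was found in 41 starts (54.67%), against 30.72% of all starts, so the letters alone are common there. Of the starts of mitochondrial ribosomal proteins, which are not TOP mRNAs, 0 of 75 had a tract at the first base, but 31 (41.33%) had one within 10 bases. Below, each sequence runs from 10 bases before the first transcribed base to the 20th transcribed base, and capitals mark a single tract in each. The first 5 are classic ribosomal proteins with a tract at the first base, for Rps6 on chr4:86857348-86857377 (minus strand), Rps18 on chr17:33955646-33955675 (minus strand), Rpl35 on chr2:39005112-39005141 (minus strand), Rpl15 on chr14:18270967-18270996 (minus strand) and Rps27 on chr3:90213629-90213658 (minus strand). The last 3 are paralogues that return below, Rpl39l on chr16:10170218-10170247, Rps27l on chr9:66946076-66946105 (the first of its pair of annotated starts) and Rpl22l1 on chr3:28805498-28805527, all on the plus strand, whose tracts do not begin at the annotated first base. The marked tracts of Rpl39l and Rps27l lie wholly before that base, outside the annotated transcript. In Rps27l a shorter run that meets the rule follows just after the first transcribed base and is in lower case.
Rps6: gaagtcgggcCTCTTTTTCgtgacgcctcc
Rps18: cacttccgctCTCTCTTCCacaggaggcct
Rpl35: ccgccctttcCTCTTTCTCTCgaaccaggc
Rpl15: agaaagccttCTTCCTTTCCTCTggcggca
Rps27: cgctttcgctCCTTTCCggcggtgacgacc
Rpl39l: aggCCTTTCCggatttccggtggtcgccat
Rps27l: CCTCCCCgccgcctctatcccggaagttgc
Rpl22l1: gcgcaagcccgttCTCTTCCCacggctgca

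Before the ribosomal proteins, the labels and the arrays were checked. Values are log2 intensities after background correction, loess and quantile normalization, and "well above background" is the scanner software's own rating of a spot. Tia1 had 3 probes, of which the brightest read 10.72 and 8.54 in WT, 7.87 and 8.44 in TIA1 KO and 9.56 and 9.58 in TIAR KO MEF (limma, log2 fold change of TIA1 KO over WT -1.47, adjusted p = 0.288). The brighter of the 2 Tial1 (TIAR) probes read 13.22 on the WT array that measured it, 14.07 and 13.69 in TIA1 KO and 9.57 and 11.60 in TIAR KO MEF. The other Tial1 probe read 11.71 and 11.09 in WT against 10.00 and 9.65 in TIAR KO MEF, a fall of 1.58 on the log2 scale (limma, adjusted p = 0.0254). On these probes each target RNA was lowest in the MEF labelled for its loss, with the second Tial1 probe alone past the test. Of the other Tia1 probes, one read 9.56 and 9.90 in WT against 7.57 and 8.65 in TIA1 KO MEF, lower without overlap by 1.62 but not past the test (limma, adjusted p = 0.116). The dimmest went the other way, at 7.44 and 7.25 in WT and 7.88 and 8.54 in TIA1 KO MEF. The position of these probes relative to the deleted parts of the genes was not analysed here.

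Fibroblast markers were unequal between the groups. The collagen gene Col3a1 read 9.52 and 9.08 in WT against 15.60 and 15.65 in TIA1 KO and 15.16 and 16.64 in TIAR KO MEF, and the receptor gene Pdgfra read 6.37 and 6.40 in WT against 10.05 and 10.22 in TIA1 KO and 11.68 and 11.51 in TIAR KO MEF. Among 9 probes of 8 fibroblast markers, 5 rose in TIA1 KO MEF and 6 rose in TIAR KO MEF by limma's adjusted p under 0.05, against 2.18% and 4.35% of all probes. Their median value on the arrays was 15.29 and 15.09 in WT, 17.27 and 17.25 in TIA1 KO and 17.25 and 17.67 in TIAR KO MEF. Vim, an intermediate filament gene, and S100a4 were bright in all 6 samples. Thy1 was near background in WT and TIA1 KO MEF and bright in TIAR KO MEF. Of the endothelial genes, Cdh5 was well above background on no array and Pecam1 on 4, at 7.61 to 8.16. Of the haematopoietic genes, Ptprc and Lyz2 were well above background on no array, while Cd68, a lysosomal protein abundant in macrophages, was on all 6. Cd68 read 10.89 and 10.15 in WT, 10.19 and 10.17 in TIA1 KO and 11.66 and 11.64 in TIAR KO MEF, higher in TIAR KO than in TIA1 KO MEF by 1.48 (limma, adjusted p = 0.0264). Among 5 probes of 4 epithelial genes, 1 of them well above background on all 6 arrays, 1 rose in TIA1 KO and 4 rose in TIAR KO over WT MEF by limma's adjusted p, against the same 2.18% and 4.35%. Krt18, an epithelial keratin, read 7.29 and 7.30 in WT, 6.80 and 7.79 in TIA1 KO and 10.08 and 9.95 in TIAR KO MEF. Krt8, its partner keratin, read 8.24 and 8.37 in WT, 9.44 and 9.63 in TIA1 KO and 9.47 and 9.61 in TIAR KO MEF, higher in both knockouts. Whether these differences between the cell lines had a part in any ribosomal protein result was not tested.

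The TIA1 KO arrays differed technically from the other 4. The median intensity of the negative-control spots was 196 and 119 there, against 112 and 103 for WT and 96.7 and 88.6 for TIAR KO. The scanner software rated 16021 and 19996 probes well above background on the TIA1 KO arrays, against 23569 and 26295 on the WT and 24796 and 26011 on the TIAR KO arrays. All arrays lay on 1 slide, the TIA1 KO arrays in a row of their own. Slide row and loss of TIA1 therefore cannot be told apart.

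Ribosomal protein probes were among the brightest of the array. Of the 189 probes, 108 (57.1%) belonged to the brightest 1% of all probes by their mean value over the 6 arrays, and 178 were well above background on all 6. Only 3 probes were well above background on no array. The 189 probes had a median of 17.44 and 17.50 for WT, 17.44 and 17.46 for TIA1 KO and 17.38 and 17.42 for TIAR KO. The WT and TIA1 KO arrays overlapped, and the TIAR KO arrays were slightly lower than both. Over all probes well above background the same arrays had medians of 12.30 and 12.30, 12.29 and 12.28, and 12.28 and 12.29. Quantile normalization gives the brightest spots of every array the same set of values, so that differences at this end of the scale are bounded by construction.

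The spread between the 2 arrays of a group set what could be seen. For the brightest probe of each gene, the median size of the difference between arrays on the log2 scale was 0.18 in WT MEF, 0.15 with TIA1 lost and 0.26 with TIAR lost. It went beyond 0.5 for 21 of 83 genes in WT, 6 of 84 among TIA1 KO and 13 of 83 among TIAR KO MEF. Rpl7 shows such a case, since this large-subunit protein read 17.16 and 17.93 in WT.

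In TIA1 KO compared with WT MEF, the median log2 fold change of the ribosomal protein probes was -0.01 after quantile normalization, with quartiles at -0.17 and 0.19, beside a median of -0.09 over all probes and -0.04 over probes well above background on all arrays. It depended on the scaling, and was -1.45 with a common array median and -0.59 with spike-in scaling. Of the 189 probes 93 were above and 95 below zero. At an adjusted p under 0.05 (limma, Benjamini-Hochberg), 2 probes rose and 0 fell, both rises also beyond 2-fold, and 16 (8.47%) had an unadjusted p under 0.05, against 27.8% of all probes. Over the whole array 2.18% of probes rose and 1.36% fell by either rule. With a common array median 1 ribosomal protein probe rose and 152 fell, where 28.4% of all probes were called with the fold. With spike-in scaling 2 rose and 6 fell, where 24.6% of all probes were called. Read from the brightest probe, 0 of the 84 genes passed the test, with 3 of them at an unadjusted p under 0.05 when only 1 probe per gene was tested, and 80 genes lay within 0.5 of zero. The median was 0.01 without TIA1 KO array 1, which had the highest background, and -0.05 without TIA1 KO array 2. In both fits more ribosomal protein probes were called than with all 4 arrays, and so were more of all probes. Without WT array 1 or 2 the fit called 0 of all probes on the array, so that it bears on no single call, and only fold changes are given from it.

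In TIAR KO compared with WT MEF, 1 gene passed the test on its brightest probe, the paralogue Rpl39l. The median log2 fold change was -0.07, with quartiles at -0.33 and 0.20, beside -0.02 over all probes and -0.04 over probes well above background. At the adjusted p alone 2 probes rose and 3 fell, and with the fold 2 rose and 2 fell. Over the whole array 4.35% rose and 3.44% fell by the adjusted p alone, and 3.39% rose and 2.37% fell with the fold. With a common array median the ribosomal protein probes had a median of -0.40. There 1 rose and 8 fell with the fold, beside 7.43% of all probes called. With spike-in scaling their median was -0.25, and 2 rose and 8 fell, beside 8.58% of all probes called. An unadjusted p under 0.05 was seen for 29 of the ribosomal protein probes (15.3%) and for 20.2% of all probes. Read from the brightest probe, 67 of the 84 genes lay within 0.5 of zero. The median was -0.11 and -0.08 without WT array 1 and 2, and 0.00 and -0.06 without TIAR KO array 1 and 2. Ribosomal protein calls moved up in some of these fits and down in others, while fewer of all probes were called in each.

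Between the knockouts, TIAR KO over TIA1 KO, the median of the ribosomal protein probes was -0.04, beside 0.05 over all probes and 0.01 over probes well above background. By either rule 1 probe rose and 3 fell, where 1.72% of all probes rose and 1.63% fell. This balance turned with a common array median, where 46 rose and 1 fell and the median was 1.03, and with spike-in scaling 1 rose and 4 fell at a median of 0.32. With the array median 8307 of all probes (14.9%) were called with the fold, 7242 of them up. With the spike-ins 8864 (15.9%) were called, 2051 of them up. The median was -0.03 without TIA1 KO array 1 and -0.04 without TIA1 KO array 2. Without TIA1 KO array 2 more ribosomal protein probes were called, and so were far more of all probes. Without TIAR KO array 1 or 2 the median was 0.01 or -0.08. These last fits called no probe of the array and bear on no single call. An unadjusted p under 0.05 was seen for 22 probes (11.6%), against 22.6% of all probes. In all, 10 of the 189 probes passed the adjusted p in at least 1 of the 3 comparisons, and 9 of these also the fold. In TIA1 KO over WT, TIAR KO over WT and between the knockouts, 3.54%, 5.76% and 3.35% of all probes were called with the fold. A share of all probes pooled over the comparisons is not given.

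**Figure D1:**
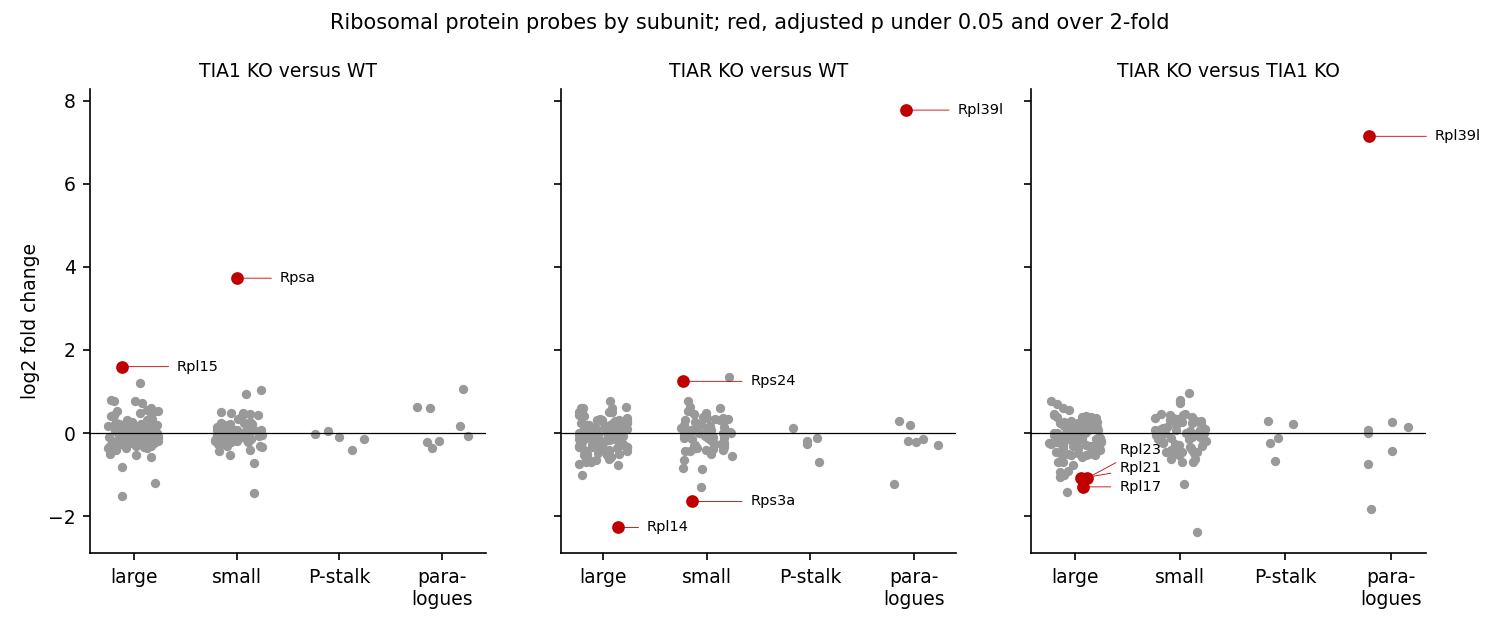
Log2 fold change of each of the 189 ribosomal protein probes (points) in the 3 comparisons, by large subunit, small subunit, P-stalk and paralogues, with probes at an adjusted p under 0.05 and beyond 2-fold in red. Most points lie close to zero, 2 red points stand out in TIA1 KO, 4 in TIAR KO and 4 between the knockouts, and Rpl39l lies far above all others.

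Rpl39l, a paralogue of the exit-tunnel protein gene Rpl39 that is known mainly from testis, was the exception. Its single probe (mm9 chr16:10174657-10174716) read 6.32 and 6.59 in WT and 7.21 and 6.96 in TIA1 KO MEF, not well above background on any of these 4 arrays. In TIAR KO MEF it read 14.23 on array 2, while its spot on array 1 was left out as an outlier. That spot was bright as well, and read 13.65 when it was kept. The mean spot intensity was 113 and 124 in WT, 321 and 101 in TIA1 KO and 11987 and 14847 in TIAR KO MEF, and the authors' log2 table gives 13.79 and 14.22 for the TIAR KO arrays. The TIAR KO samples were therefore high and the other 4 at background, with no overlap. Taking the lowest value rated well above background for the dim arrays and the mean of both TIAR KO spots with the outlier kept, Rpl39l was at least 133-fold higher in TIAR KO than in WT MEF. It was at least 87.3-fold higher than in TIA1 KO MEF. With both spots the log2 fold changes were 7.49 and 6.86 (limma, adjusted p = 0.000264 and 0.00646). Without the outlier spot they were 7.78 and 7.15 (limma, adjusted p = 0.000448 and 0.00944), where the TIAR KO group is 1 value and the spread comes from the other group. Rpl39 itself read 16.96 and 17.57 in WT, 17.65 and 17.72 in TIA1 KO and 17.78 and 17.39 in TIAR KO MEF, with the TIA1 KO samples above WT and the TIAR KO samples overlapping both, and did not pass the test.

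The paralogue Rps27l, a homologue of the small-subunit protein Rps27 and known as a p53 target, was low in TIAR KO MEF. It read 16.59 and 17.02 in WT, 17.32 and 17.51 in TIA1 KO and 15.98 and 15.17 in TIAR KO MEF. The samples of each group did not overlap those of another. Over WT the log2 fold change was 0.61 ± 0.22 (SE) without TIA1 and -1.23 ± 0.31 without TIAR, and -1.84 ± 0.32 between the knockouts, with adjusted p of 0.174, 0.0880 and 0.0712 by limma, so that none passed the threshold. Rps27 read 17.56 and 18.16 in WT, 17.45 and 17.72 in TIA1 KO and 17.995 and 17.72 in TIAR KO MEF, without a separation of the groups. All 4 Rps27 probes are placed on mm9 chr9 and not on the gene's chromosome 3, so these values may include a copy.

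Rpl22l1, the paralogue of the RNA-binding large-subunit protein Rpl22, read 15.24 and 16.15 in WT, 16.51 and 16.98 in TIA1 KO and 15.89 and 16.10 in TIAR KO MEF. The brightest probe of Rpl22 read lower in TIA1 KO MEF, with 17.64 and 17.65 in WT, 17.05 and 17.23 in TIA1 KO and 17.59 and 17.59 in TIAR KO MEF. In both genes the TIA1 KO samples did not overlap the WT samples, but neither the log2 fold change of 1.05 for Rpl22l1 nor that of -0.51 for Rpl22 passed the test (limma, adjusted p = 0.175 and 0.147). The other Rpl22 probe was higher in TIA1 KO MEF, at 11.91 and 12.37 in WT, 12.84 and 12.98 in TIA1 KO and 12.45 and 11.25 in TIAR KO MEF (log2 fold change 0.77 over WT, limma, adjusted p = 0.13), so that the Rpl22 probes disagreed. Rpl7l1, related to Rpl7, read 10.83 and 12.16 in WT, with all 4 knockout samples between these values. Rpl3l, a muscle paralogue of Rpl3, and Rpl10l, a testis paralogue of Rpl10, were well above background on no array. Rps4y2 was well above background on 1 array only.

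**Figure D2:**
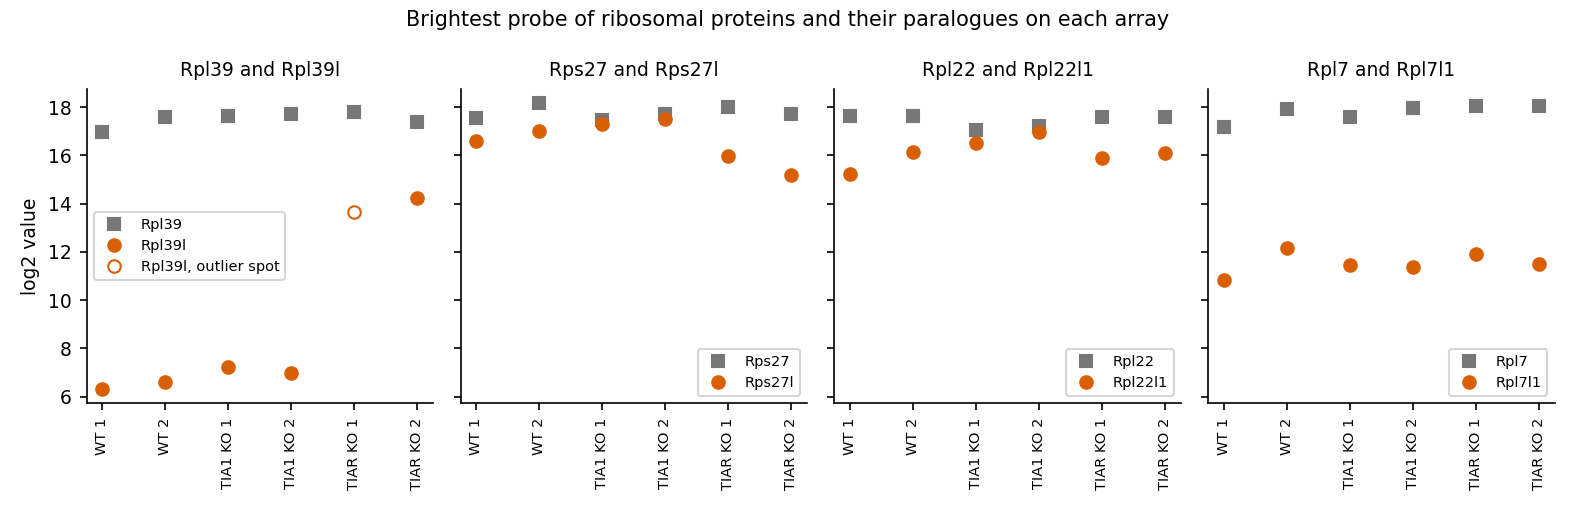
Log2 value of the brightest probe of Rpl39, Rps27, Rpl22 and Rpl7 (grey squares) and of their paralogues (orange circles) on each of the 6 arrays, with the Rpl39l outlier spot of TIAR KO array 1 as an open circle. Rpl39l lies near 7 on the WT and TIA1 KO arrays and near 14 in TIAR KO MEF, and Rps27l is lowest on the TIAR KO arrays.

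The other 9 probes past the test were each a dimmer probe of a gene whose brightest probe did not pass. They lay 0.33 to 8.65 below the brightest probe of their gene on the log2 scale. Of 59 genes with several probes (up to 7), the log2 fold changes of a gene's probes spanned more than 1 in 8 genes in TIA1 KO and in 8 in TIAR KO MEF, with a median span of 0.36 and 0.54. The array places 11 of the 189 probes, of 5 genes, on another chromosome than the gene, and 1 probe has no position. Processed copies of ribosomal protein genes are common, and near-identical copies may share signal. These 11 are the brightest probes of Rps27, Rps4x and Rps29 and dimmer probes of Rpl13, Rpl36, Rps27 and Rps29.

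Rpsa encodes a small-subunit protein also known as the laminin receptor. Its dimmest probe (mm9 chr9:120040967-120041026) read 8.31 and 7.08 in WT, 11.30 and 11.55 in TIA1 KO and 9.69 and 8.39 in TIAR KO MEF. TIA1 KO samples were high without overlap, and the log2 fold change over WT was 3.73 (limma, adjusted p = 0.0374). The brightest Rpsa probe, 8.65 above it, read 18.39 and 17.56 in WT, 18.39 and 18.06 in TIA1 KO and 17.99 and 17.86 in TIAR KO MEF, where the WT samples overlapped both knockouts. Over the 4 Rpsa probes the log2 fold changes in TIA1 KO over WT MEF spanned 4.26, more than the rise of the dim probe, so that the Rpsa probes disagreed. Without WT array 1 or 2 the log2 fold change of the dim probe was 4.34 or 3.12. With the replicate block the dim probe stayed at 3.73 but was not called (limma, adjusted p = 0.0677). With a common array median it was 2.73, still called.

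Rpl15, a large-subunit protein whose TOP start is shown above, had a dim probe (mm9 chr14:19100588-19100647) at 12.77 and 12.76 in WT, 14.37 and 14.35 in TIA1 KO and 13.25 and 13.47 in TIAR KO MEF. It rose by 1.60 in TIA1 KO MEF (limma, adjusted p = 0.0215), and the log2 fold change was 1.60 and 1.59 without WT array 1 and 2. It was 0.01 with a common array median (adjusted p = 0.984) and 0.88 with spike-in scaling (adjusted p = 0.147), where the call was lost. With the replicate block it stayed at 1.60 but was not called (limma, adjusted p = 0.0683). The bright Rpl15 probe read 17.55 and 17.88 in WT, 17.94 and 18.10 in TIA1 KO and 17.56 and 17.90 in TIAR KO MEF. Only the dim probe separated the groups widely.

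Rpl14, another large-subunit protein, had the largest fall among the ribosomal protein probes of TIAR KO MEF. A probe of it (mm9 chr9:120483689-120483748) read 15.02 and 14.53 in WT, 13.26 and 13.28 in TIA1 KO and 12.44 and 12.56 in TIAR KO MEF. The 3 groups did not overlap, and the log2 fold change was -2.27 in TIAR KO (limma, adjusted p = 0.00382) and -1.50 in TIA1 KO MEF (limma, adjusted p = 0.0535). The fall in TIAR KO MEF kept an adjusted p of 0.0341 or less when any 1 array was left out. The brightest Rpl14 probe (mm9 chr9:120483487-120483546) read 18.69 and 18.74 in WT, 18.57 and 18.65 in TIA1 KO and 18.65 and 18.46 in TIAR KO MEF, close together in all groups.

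Rps3a, a protein of the small subunit, had a probe, placed across mm9 chr3:85942027-85942458, that read 17.04 and 16.70 in WT, 15.65 and 15.18 in TIA1 KO and 15.46 and 14.99 in TIAR KO MEF. Both knockouts lay below WT and overlapped each other. Its log2 fold change was -1.65 in TIAR KO (limma, adjusted p = 0.0145) and -1.46 in TIA1 KO MEF (limma, adjusted p = 0.0685). The TIAR KO call was lost without WT array 1 (adjusted p = 0.0558) or TIAR KO array 2 (0.0631). The brightest probe of Rps3a read between 18.11 and 18.34 in all 6 samples.

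Rps24 is a small-subunit gene known for alternative splicing of its last exons. A probe placed across mm9 chr14:25312695-25315015 read 17.03 and 16.36 in WT, 17.68 and 17.60 in TIA1 KO and 17.92 and 17.96 in TIAR KO MEF. WT was lowest and TIAR KO highest, and the log2 fold change of TIAR KO over WT was 1.25 (limma, adjusted p = 0.0455). The call was lost without WT array 2 (0.91, adjusted p = 0.0784) and without TIAR KO array 1 or 2 (1.26 and 1.23, adjusted p = 0.165 and 0.176), and with a common array median (0.82, adjusted p = 0.0558) or spike-in scaling (0.97, adjusted p = 0.0598). The brightest Rps24 probe read 18.07 and 17.13 in WT and 17.17 and 18.15 in TIAR KO MEF, so that its groups overlapped. Over the 4 Rps24 probes the log2 fold changes in TIAR KO over WT MEF spanned 1.52, more than the rise of the called probe. The Rps24 probes therefore disagreed.

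The 3 probes that fell from TIA1 KO to TIAR KO MEF belonged to the large-subunit proteins Rpl17, Rpl21 and Rpl23. A probe of Rpl17 read 16.46 and 17.68 in WT, 17.50 and 17.68 in TIA1 KO and 16.16 and 16.42 in TIAR KO MEF. A probe of Rpl21 (mm9 chr5:147647577-147647636) read 9.93 and 10.19 in WT, 11.22 and 11.31 in TIA1 KO and 10.14 and 10.21 in TIAR KO MEF. A probe of Rpl23 printed in 10 spots (mm9 chr11:97638917-97638976) read 13.48 and 13.67 in WT, 14.36 and 14.40 in TIA1 KO and 13.25 and 13.33 in TIAR KO MEF. In the last 2 genes the TIA1 KO samples were high and the other 4 close together. The log2 fold changes were -1.30 for Rpl17, -1.09 for Rpl21 and -1.09 for Rpl23, with adjusted p of 0.0489, 0.0488 and 0.0475 by limma. Without TIAR KO array 1 or 2 the log2 fold changes were -1.05 to -1.43. With a common array median they were -0.25, -0.06 and 0.05, and with spike-in scaling -0.96, -0.77 and -0.66, none of them called. Another Rpl21 probe of like brightness disagreed, at 10.43 and 10.84 in WT, 9.59 and 9.27 in TIA1 KO and 10.20 and 10.22 in TIAR KO MEF (log2 fold change 0.78 between the knockouts, limma, adjusted p = 0.121). The brightest probe of Rpl23 read between 17.81 and 18.24 on the 6 arrays.

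**Figure D3:**
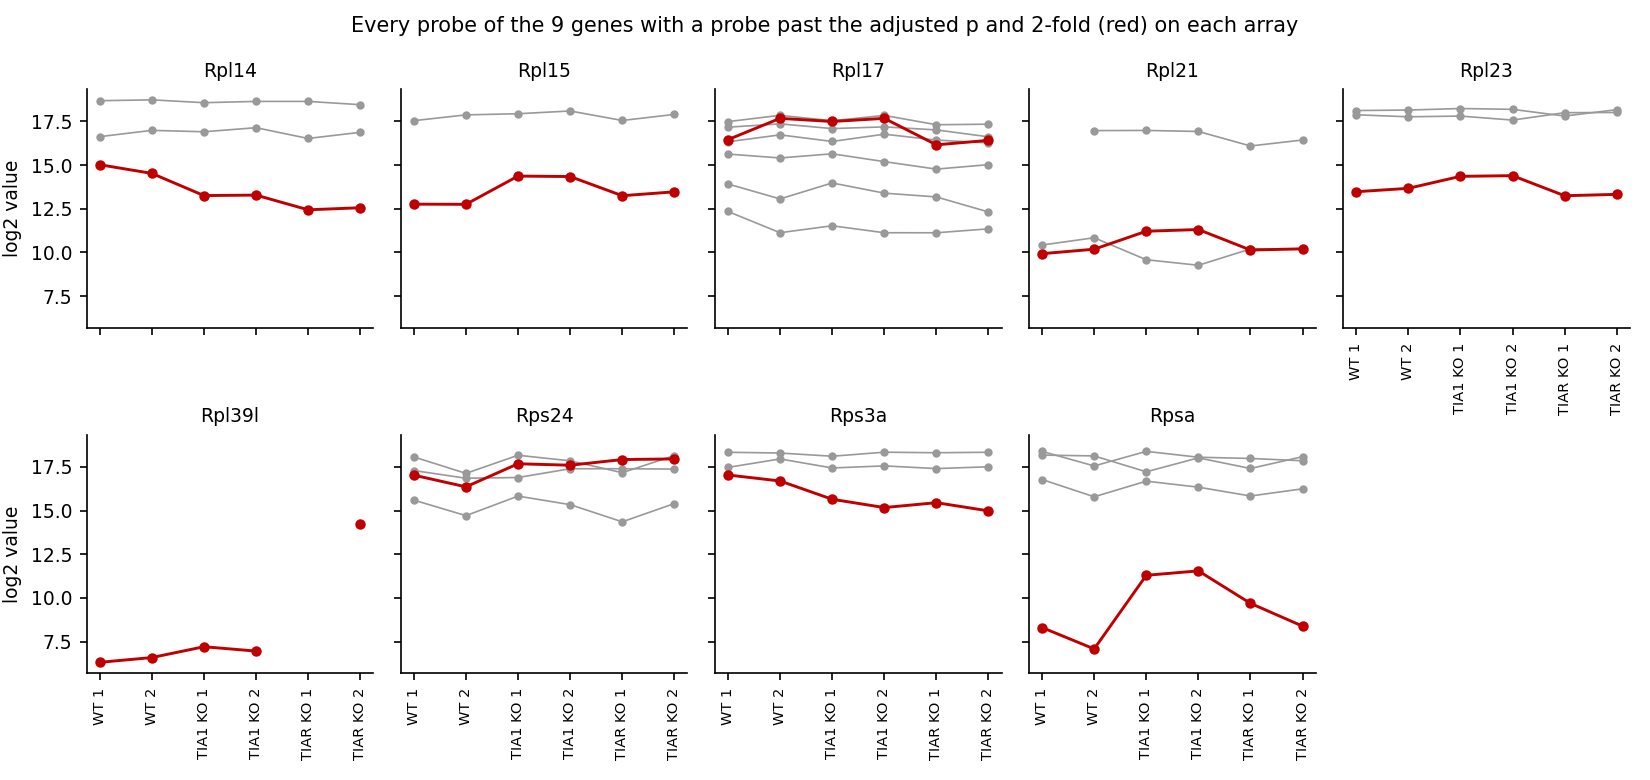
Log2 value of every probe of the 9 genes with a probe past the adjusted p and 2-fold in any comparison, on each of the 6 arrays. Red lines are the probes that passed and grey lines the other probes of the same gene, most of which lie above the red ones. A grey Rpl21 probe moves against the red one. The Rpl39l spot on TIAR KO array 1 and the brightest Rpl21 spot on WT array 1 were left out as outliers, which leaves gaps.

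Core ribosomal proteins, read from the brightest probe, were close to the spread between arrays. Rps6, the S6 kinase substrate of the small subunit, read 18.47 and 18.39 in WT, 18.34 and 18.52 in TIA1 KO and 17.93 and 18.21 in TIAR KO MEF. Its TIAR KO samples were lowest, at a log2 fold change of -0.36 that did not pass the test (limma, adjusted p = 0.319). Rps3, at the mRNA entry channel, read between 16.87 and 17.17 in all 6 samples. Rps14 read between 18.42 and 18.81, and in both genes the TIAR KO samples overlapped those of WT. Rpl26, known to bind p53 mRNA, read 17.82 and 17.86 in WT, 18.03 and 18.04 in TIA1 KO and 18.01 and 17.97 in TIAR KO MEF, above WT in both knockouts without passing the test (limma, adjusted p = 0.415 and 0.655).

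Rps19, a small-subunit protein mutated in Diamond-Blackfan anaemia, read 17.41 and 17.52 in WT, 17.28 and 17.33 in TIA1 KO and 16.81 and 16.81 in TIAR KO MEF. The 3 groups did not overlap, with a log2 fold change of -0.65 ± 0.14 (SE) in TIAR KO over WT MEF just short of the threshold (limma, adjusted p = 0.0581). Rps20 read 18.59 and 18.52 in WT, 18.40 and 18.44 in TIA1 KO and 18.54 and 17.46 in TIAR KO MEF, where 1 array of a pair stood low. Rps7 did the same, with 17.34 and 17.51 in WT, 17.22 and 17.46 in TIA1 KO and 16.78 and 15.45 in TIAR KO MEF. Its log2 fold change in TIAR KO MEF was the lowest of the brightest probes at -1.31, and it did not pass the test (limma, adjusted p = 0.174).

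The P-stalk recruits elongation factors to the ribosome. Its base Rplp0 read 19.01 and 19.11 in WT, 18.98 and 19.11 in TIA1 KO and 18.70 and 18.03 in TIAR KO MEF, lowest in TIAR KO (log2 fold change -0.69, limma, adjusted p = 0.205). The log2 fold changes of the Rplp0 probes in TIAR KO over WT MEF spanned 0.81, more than the fall of the brightest, and the Rplp0 probes disagreed. Rplp1 read 18.35 and 18.54 in WT, 18.55 and 18.46 in TIA1 KO and 18.27 and 18.24 in TIAR KO MEF. Rplp2 read 18.54 and 18.48 in WT, 18.29 and 17.92 in TIA1 KO and 18.49 and 18.31 in TIAR KO MEF. Among 5 P-stalk probes, 4 were below zero in each comparison with WT and 0 passed the test, with 0 and 1 of them at an unadjusted p under 0.05. Of all probes, 27.8% and 20.2% were at that unadjusted p. By the adjusted p 2.18% and 4.35% of all probes rose and 1.36% and 3.44% fell.

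Among large-subunit proteins, Rpl5 and Rpl11, which bind the 5S RNA and the p53 regulator Mdm2, had log2 fold changes of -0.34 and 0.08 in TIA1 KO and 0.06 and -0.32 in TIAR KO MEF. Rpl11 read 17.90 and 18.15 in WT, 18.52 and 17.68 in TIA1 KO and 16.95 and 18.45 in TIAR KO MEF, so that the TIAR KO arrays lay further apart than the group means. Rpl3, at the peptidyl transferase centre, read 16.96 and 17.89 in WT, 17.84 and 18.005 in TIA1 KO and 17.99 and 18.07 in TIAR KO MEF, with 1 WT array low and the other within the range of the TIA1 KO samples. Rps27a, made as a fusion with ubiquitin, read 17.94 and 18.38 in WT, 18.26 and 18.61 in TIA1 KO and 18.71 and 18.83 in TIAR KO MEF. TIAR KO samples were highest there, but not past the test (log2 fold change 0.61, limma, adjusted p = 0.16).

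The remaining core proteins chosen by role, Rps4x, Rpl10, Rpl13a and Rpl38, had log2 fold changes between -0.03 and 0.13 in TIA1 KO and between -0.36 and 0.51 in TIAR KO MEF, and none passed the test. The brightest Rps4x probe is placed on chromosome 3, and the Rps4x probe on the gene's own chromosome X had log2 fold changes of 0.49 and 0.33, neither past the test. Rpl13 and Rpl9, of the large subunit, were among the lowest in TIA1 KO, at -0.35 each, and lower in TIAR KO MEF, at -0.64 and -0.59 (limma, adjusted p = 0.0721 and 0.107). Rpl36a read 16.72 and 16.74 in WT, 16.55 and 16.68 in TIA1 KO and 16.22 and 15.20 in TIAR KO MEF. Its low TIAR KO mean rested largely on array 2. Among the largest rises of the brightest probes were also Rpl19 and Rps23 in TIA1 KO, at 0.49 and 0.46, Rpl7a and Rpl7 in TIAR KO, at 0.60 and 0.52, and Rpl27a between the knockouts, at 0.69, and none of these passed the test. Of the 84 genes, 6 lay above 0.5 and 11 below -0.5 in TIAR KO over WT MEF, against 3 and 1 in TIA1 KO over WT MEF. Both comparisons share the WT arrays.

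Genes with a TOP tract at the annotated first base were also described apart. The 13 genes ranged from -0.40 to 0.31 in TIA1 KO and from -0.36 to 0.31 in TIAR KO MEF, with medians of -0.08 and 0.00 on the log2 scale. The 50 genes with annotated starts but no tract at the first base ranged from -0.51 to 1.05 and from -1.31 to 7.78, with medians of -0.02 and -0.06. All of the 13 were well above background on every array, against 47 of the 50. The dim paralogues belong to the larger set, and the annotated first base can miss the true start by a few bases. No test was made of this split.

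Large changes were scarce among these bright probes. In TIAR KO over WT MEF, 8 of the 189 ribosomal protein probes (4.23%) differed by more than 2-fold, against 15.5% of the 13823 probes that every array rated well above background. In TIA1 KO over WT MEF the same shares were 4.23% and 13.4%. Within the brightest 1% of the array, 1 of 108 ribosomal protein probes (0.926%) and 9 of 449 other probes (2.00%) differed by more than 2-fold in TIAR KO, and 0.926% and 1.34% in TIA1 KO MEF.

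The median of the whole group depended on how the arrays were scaled, and between the knockouts its sign turned. With every array set to a common median, without quantile normalization, the median of the ribosomal protein probes was -1.45 in TIA1 KO and -0.40 in TIAR KO over WT MEF. With the fold 152 and 8 of them fell, and by the adjusted p alone 152 and 18. Of all probes, 15801 (28.4%) and 4139 (7.43%) were called there with the fold, 1876 and 1424 of them up. Scaled to the spike-in controls added to the RNA, the medians were -0.59 and -0.25. In TIAR KO over TIA1 KO MEF the median was -0.04 after quantile normalization, 1.03 with a common array median and 0.32 with spike-in scaling, where probes well above background had medians of 0.01, 1.09 and 0.37. Probes well above background moved by as much under these scalings, with medians of -1.53 and -0.44 for the array median and -0.67 and -0.29 for the spike-ins. Taken relative to the probes well above background, ribosomal proteins stood 0.04, 0.08 and 0.08 higher in TIA1 KO over WT MEF under quantile, median and spike-in scaling, and -0.03, 0.04 and 0.04 in TIAR KO over WT MEF. In the authors' log2 table the medians were -0.01 and -0.07, with 2 probes up and 0 down in TIA1 KO and 2 up and 2 down in TIAR KO MEF. Of all probes, 2.32% and 5.65% were called there with the fold. A shift of the whole group relative to the total RNA was therefore not measurable apart from the scaling, while the median of the ribosomal proteins was at most 0.14 away from that of the probes well above background in the 6 scalings and 3 comparisons.

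**Figure D4:**
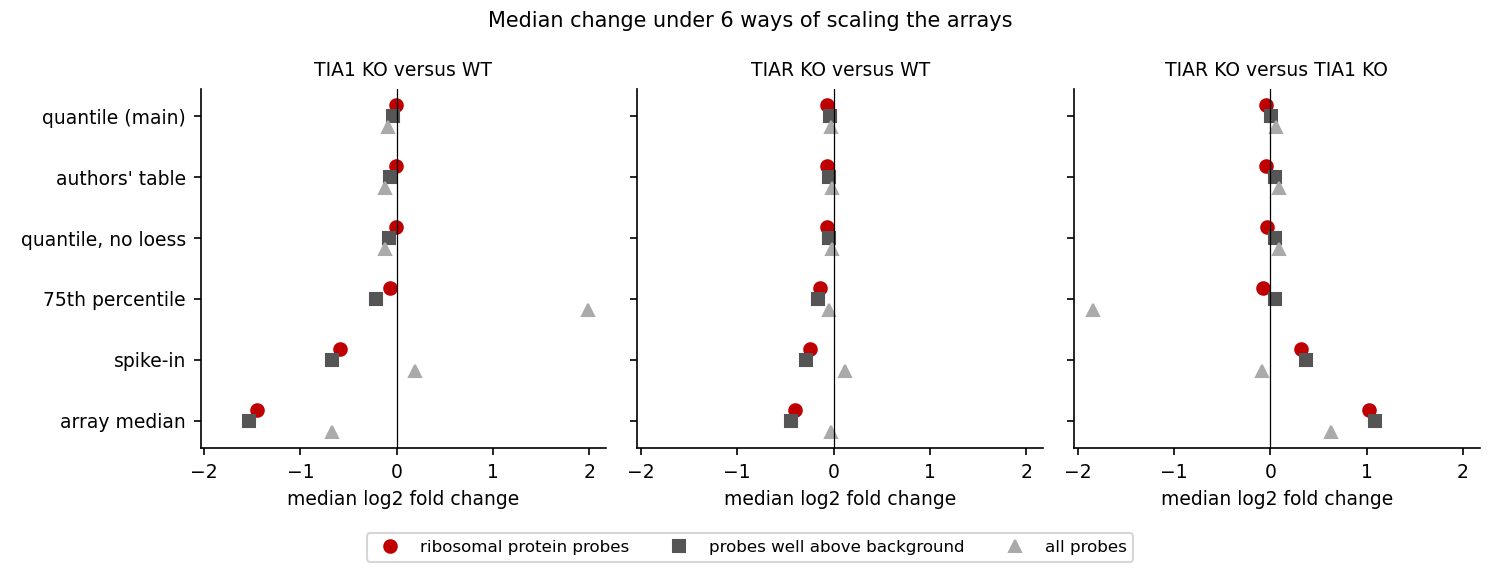
Median log2 fold change (horizontal axis) of ribosomal protein probes (red circles), of probes well above background on all arrays (dark squares) and of all probes (light triangles) under 6 ways of scaling the arrays, in the 3 comparisons. Red circles and dark squares stay close together in every scaling while both move away from zero under spike-in and array-median scaling.

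Other RNAs with TOP starts were followed for comparison. Of 53 probes of 30 genes, among them elongation and initiation factors, snoRNA hosts and others such as Tpt1, Nap1l1 and Vim (also used here as a fibroblast marker), 0 rose and 1 fell in TIA1 KO, and 2 rose and 0 fell in TIAR KO MEF by limma's adjusted p, with 7 (13.2%) and 11 (20.8%) at an unadjusted p under 0.05, against 27.8% and 20.2% of all probes. Over the whole array 2.18% rose and 1.36% fell in TIA1 KO and 4.35% rose and 3.44% fell in TIAR KO MEF by the same rule. Their medians were 0.22 and 0.03, and 39 of the 53 were above zero in TIA1 KO over WT MEF. The elongation factor gene Eef1a1 read 17.00 and 17.35 in WT, 17.56 and 17.64 in TIA1 KO and 17.66 and 17.26 in TIAR KO MEF. The elongation factor gene Eef2 and the translationally controlled tumour protein gene Tpt1 had log2 fold changes of 0.18 and -0.02 in TIA1 KO and -0.61 and -0.17 in TIAR KO MEF. None of these 3 passed the test. Fau, a ribosomal protein made as a fusion with a ubiquitin-like protein, and Gnb2l1 (Rack1), a small-subunit scaffold, did not pass it either.

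The calls in that list were those of Eif4a2 and Gas5. Eif4a2, a helicase of translation initiation that was named here after its values were seen, read 13.88 and 13.67 in WT, 14.24 and 14.42 in TIA1 KO and 14.73 and 14.85 in TIAR KO MEF. It rose by 1.01 in TIAR KO over WT MEF (limma, adjusted p = 0.0209), a call lost without any 1 of the 4 arrays (limma, adjusted p = 0.0530 to 0.103), with a common array median (0.55, adjusted p = 0.0586) and with spike-in scaling (0.70, adjusted p = 0.304). Gas5 is a non-coding RNA with a TOP start that hosts snoRNAs. The brightest Gas5 probe (mm9 chr1:162968608-162968667) read 11.81 and 11.73 in WT, 9.45 and 9.88 in TIA1 KO and 13.82 and 13.39 in TIAR KO MEF. The groups did not overlap, and the RNA fell by 2.11 in TIA1 KO (limma, adjusted p = 0.0248) and rose by 1.83 in TIAR KO MEF (limma, adjusted p = 0.00586). The difference between the knockouts was 3.94 (limma, adjusted p = 0.0113), and 4.15 or 3.73 without TIAR KO array 2 or 1. In TIA1 KO MEF the log2 fold change was -2.07 and -2.15 without WT array 1 and 2, and with a common array median -3.56, also called. The other 2 Gas5 probes disagree with it, with log2 fold changes of 1.16 and 0.40 in TIA1 KO and 0.66 and 0.39 in TIAR KO MEF, none past the test.

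Of 48 probes of 29 genes that regulate TOP translation or ribosome synthesis, 2 rose and 5 fell in TIAR KO MEF, where 4.35% of all probes rose and 3.44% fell. There 15 (31.2%) had an unadjusted p under 0.05, against 20.2% of all probes. The 5 falls include a probe of Tial1, the gene lost in these cells, and both probes of Mtor. In TIA1 KO MEF 0 passed limma's adjusted p, where 2.18% of all probes rose and 1.36% fell, and 16 (33.3%) had an unadjusted p under 0.05, against 27.8% of all probes. The brightest probe of the kinase gene Mtor read 10.46 and 10.51 in WT, 9.61 and 9.73 in TIA1 KO and 9.64 and 9.56 in TIAR KO MEF. Both knockouts were below WT, by 0.81 in TIA1 KO (limma, adjusted p = 0.0792) and 0.88 in TIAR KO MEF (limma, adjusted p = 0.023), and the TIAR KO call was lost without any 1 of the 4 arrays. The other Mtor probe, named after its values were seen, read 10.68 and 10.64 in WT, 8.71 and 9.28 in TIA1 KO and 8.95 and 8.98 in TIAR KO MEF. It was lower by 1.67 in TIA1 KO MEF (limma, adjusted p = 0.0522) and fell by 1.69 in TIAR KO MEF (limma, adjusted p = 0.00266), a call kept without any 1 array (limma, adjusted p = 0.0156 to 0.0244). Myc, a transcriptional activator of ribosome genes, read 12.51 and 12.58 in WT, 12.38 and 12.40 in TIA1 KO and 13.25 and 13.35 in TIAR KO MEF. It rose by 0.75 in TIAR KO MEF (limma, adjusted p = 0.0393), which was likewise lost without any 1 array, with a common array median (0.31, adjusted p = 0.314) and with spike-in scaling (0.46, adjusted p = 0.766). The TOP-binding repressor gene Larp1 read between 15.35 and 15.81 on all 6 arrays, with overlapping groups.

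Ribosome biogenesis factors, 73 probes of 50 genes, gave 1 rise and 1 fall in TIA1 KO and 2 rises and 6 falls in TIAR KO MEF, with medians of -0.18 and -0.12, beside whole-array shares of 2.18% and 1.36% in TIA1 KO and 4.35% and 3.44% in TIAR KO MEF. Pes1, a factor for large-subunit rRNA processing, read 11.66 and 12.26 in WT, 13.77 and 14.05 in TIA1 KO and 13.21 and 13.18 in TIAR KO MEF. Both knockouts lay above WT, by 1.95 and 1.23 (limma, adjusted p = 0.0467 and 0.0372). A dimmer Pes1 probe had log2 fold changes of 0.32 and 0.49, neither past the test (limma, adjusted p = 0.473 and 0.393). On the brightest probe the TIA1 KO log2 fold change was 1.65 and 2.25 without WT array 1 and 2. It was 0.36 with a common array median (adjusted p = 0.557, not called) and 1.22 with spike-in scaling. The TIAR KO log2 fold change was 0.79 and 0.94 under these scalings (adjusted p = 0.158 and 0.0755, not called), and its call was lost without WT array 1 (0.94, adjusted p = 0.0762) or TIAR KO array 1 or 2 (1.22 and 1.25, adjusted p = 0.152 and 0.147). Ubtf, a factor of RNA polymerase I, had a brightest probe at 16.62 and 16.58 in WT, 15.40 and 15.41 in TIA1 KO and 16.44 and 16.79 in TIAR KO MEF, low in the TIA1 KO samples. Its log2 fold change was -1.20 there (limma, adjusted p = 0.038), -1.18 and -1.22 without WT array 1 and 2, and -2.76 with a common array median and -1.90 with spike-in scaling. The other Ubtf probe, named after its values were seen, read 9.41 and 9.59 in WT, 8.50 and 8.66 in TIA1 KO and 8.49 and 8.49 in TIAR KO MEF, low in both knockouts. Its log2 fold change was -0.92 in TIA1 KO (limma, adjusted p = 0.0760) and -1.01 in TIAR KO MEF (limma, adjusted p = 0.0182), the latter call lost without any 1 array (limma, adjusted p = 0.0508 to 0.0881).

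Mitochondrial ribosomal proteins, which are not TOP mRNAs, gave 1 rise and 1 fall among 106 probes in TIA1 KO and 4 rises and 4 falls in TIAR KO MEF, with medians of -0.11 and 0.01. Over the whole array the shares were 2.18% and 1.36% in the former and 4.35% and 3.44% in the latter comparison. Mrpl36 read 11.53 and 10.65 in WT, 14.19 and 13.97 in TIA1 KO and 14.73 and 14.51 in TIAR KO MEF. It was high in both knockouts without overlap, by 2.99 in TIA1 KO (limma, adjusted p = 0.0336) and 3.54 in TIAR KO MEF (limma, adjusted p = 0.0034). Without WT array 1 or 2 the TIA1 KO log2 fold change was 3.43 or 2.55, and with a common array median 1.41, still called.

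**Figure D5:**
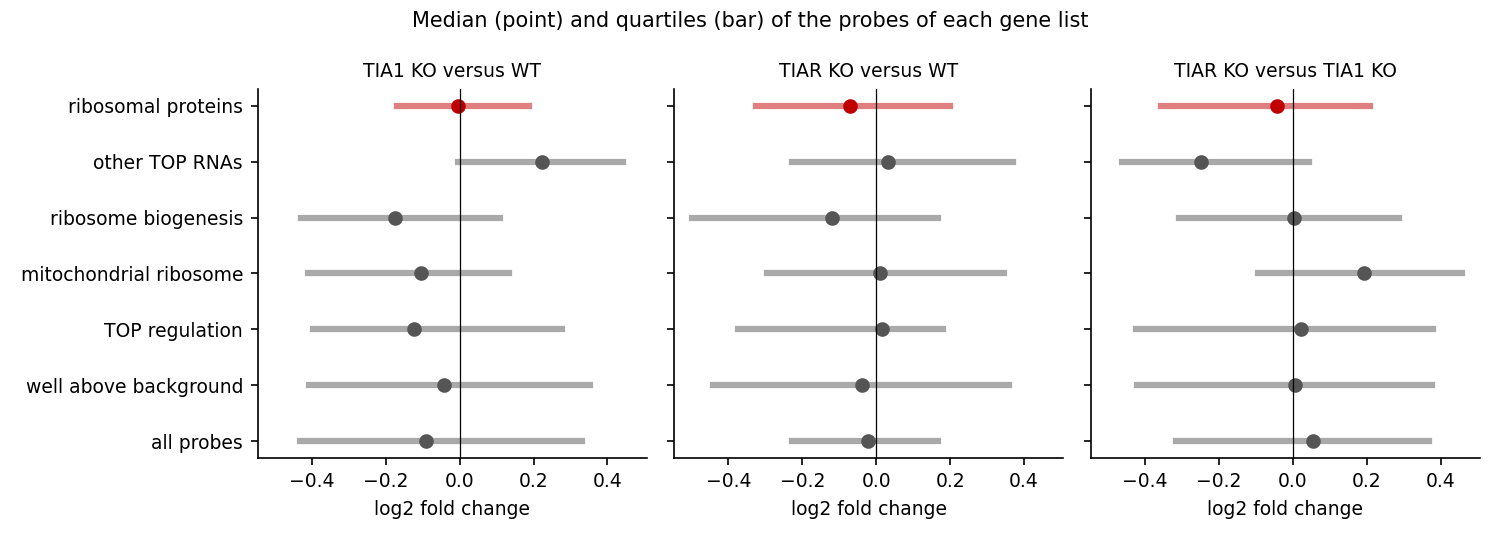
Median (point) and quartiles (bar) of the log2 fold changes of the probes of 5 gene lists, of probes well above background and of all probes in the 3 comparisons, with ribosomal proteins in red. The quartiles of each list plotted include zero, and the bar of the ribosomal proteins in TIA1 KO over WT MEF runs from -0.17 to 0.19.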

How the data were processed

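Agilent 1-colour arrays held RNA from 2 samples of each MEF line. The authors deposited the spot intensities of each array with background and quality flags (positions on mm9) and their own table of normalized log2 values. Their processing notes name limma. From the intensities, background was corrected by normexp (offset 50), followed by log2, 1 pass of loess and quantile normalization, as in the methods. The loess reference is not given in the sources used here, and the mean of the arrays was used. Outlier spots were left out and spots of a probe averaged. Each comparison was fitted with limma on its own 4 arrays, without covariates, over all 55681 probes. Calls needed a Benjamini-Hochberg adjusted p under 0.05, and with the fold above 2. P-values measure the spread between these samples only, and 2 arrays a group limit every precision. The fit was tested on simulated data.

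A gene was read from its brightest probe. Members, lists and alternatives were chosen with earlier results of these data known. Genes named were those chosen by role, paralogues with their parents, the 5 genes that rose and fell most in a comparison, called probes, and from other lists fixed genes and the largest rise and fall (some only within counts). Cell type markers follow from the lists. Alternatives were other intensities, offsets, scalings, filters, fits, the authors' table, a replicate block and leaving out each array. RefSeq (GRCm38.p6) matched all 84 genes by accession, 2 under another symbol. No other column of sample values was left unused (0). Some results of single genes are not reported here. R 4.3.3, limma 3.58.1 and Python 3.11.15 were used.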

Additional observations from a re-analysis of the deposited data

Results flagged for a closer look

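The following results differed between the knockouts in the direct comparison of TIAR KO with TIA1 KO MEF. Rpl39l was at least 87.3-fold higher in TIAR KO MEF, a bound because its probe was not well above background on either TIA1 KO array. The fitted log2 difference, which is no bound, was 7.15 with 1 TIAR KO value. It was 6.86 with the outlier spot of the other TIAR KO array kept (limma, adjusted p = 0.00646). With scanner-processed intensities it was 8.08 and with the replicate block 7.27, neither of them called. The block fit called 0 of all probes, and 10 of 12 alternatives kept the call. Gas5, a snoRNA host with a TOP start, was higher by 3.94 on its brightest probe (limma, adjusted p = 0.0113), and its other 2 probes had differences of -0.50 and -0.02. Dimmer probes of Rpl17, Rpl23 and Rpl21 were lower in TIAR KO MEF, by -1.30, -1.09 and -1.09 (limma, adjusted p = 0.0489, 0.0475 and 0.0488), while the brightest probes of these genes did not pass the test. With a common array median these differences were -0.25, 0.05 and -0.06. None of the 3 was called under that scaling, with spike-in scaling, an offset of 16, quantile normalization without loess, scanner-processed intensities or in the authors' log2 table, and 3, 5 and 4 of 12 alternatives kept the call.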

How the results depend on the processing

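Counts of called ribosomal protein probes moved with nearly every choice, and the cause was not tested beyond what each choice changes by construction. In the order TIA1 KO over WT, TIAR KO over WT and TIAR KO over TIA1 KO, the counts with the fold were 2, 4 and 4, and by limma's adjusted p alone 2, 5 and 4. With the fold, 3.54%, 5.76% and 3.35% of all probes were called. The shares of all probes that follow are also with the fold. A count was taken as moved beyond 1.5 times its value, and a median beyond the SD of array medians within groups (0.0297, 0.0345 and 0.0229). With every array set to a common median the counts with the fold were 153, 9 and 47 (153, 19 and 47 by the adjusted p alone) and the medians -1.45, -0.397 and 1.03. There 28.4%, 7.43% and 14.9% of all probes were called. With spike-in scaling the counts were 8 and 10 (8 and 11) in the comparisons with WT, and the medians -0.592, -0.249 and 0.315. This scaling called 24.6%, 8.58% and 15.9% of all probes. With scanner-processed intensities the counts were 0, 2 and 0 by either rule and the medians -0.0714, -0.141 and -0.0758, where 0 of all probes were called in TIA1 KO. The share was 4.54% in TIAR KO over WT and 2.71% between the knockouts. With 1 probe per gene the counts were 0, 1 and 1, and testing the fold above 2 itself (treat) left 0, 2 and 1. The shares of all probes tested were 4.95%, 7.19% and 4.52% in the former and 0.790%, 1.82% and 0.735% in the latter. The test was also restricted to probes rated well above background on both arrays of either group compared. This gave 6 in TIA1 KO by either rule and 7 between the knockouts by the adjusted p alone. Of the probes tested there, 12.6%, 13.2% and 12.2% were called. On all 6 arrays the same filter gave 5 (6 by the adjusted p) and 2 (2), and 7 between the knockouts by the adjusted p. An intensity trend gave 5 (6) in TIA1 KO and 7 between the knockouts by the adjusted p, and fitting all 3 groups together gave 6 (7) in TIA1 KO MEF. The trend called 4.08%, 5.61% and 3.86% of all probes and the joint fit 7.16%, 4.60% and 5.72%. Between the knockouts the count was 1 in the authors' log2 table, with an offset of 16 and without loess, and 2 with outlier spots kept. In that order 2.26%, 2.77%, 2.71% and 3.23% of all probes were called. With the offset of 16, 3 probes passed the adjusted p in TIAR KO MEF, where 6.3% of all probes were called.

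Leaving out 1 array at a time gave counts with the fold of 0 to 9, 1 to 6 and 0 to 10, counts by the adjusted p alone of 0 to 11, 1 to 6 and 0 to 14, and medians of -0.0672 to 0.0127, -0.109 to 0.00426 and -0.0780 to 0.00978. The counts of 0 come from fits that called 0 of all probes (without either WT array in TIA1 KO, without either TIAR KO array between the knockouts) and bear on no single call. The array left alone was taken to spread as its counterpart group did. In TIA1 KO over WT and between the knockouts the highest counts came without TIA1 KO array 2. Those fits also called far more of all probes than the main fit did. In both, the share called was larger among all probes than among the ribosomal protein probes. The highest counts are therefore no excess of ribosomal protein calls. Differences between arrays 1 and 2 correlated at 0.28 between WT and TIA1 KO over 13729 probes. The correlation was 0.02 between WT and TIAR KO and -0.07 between the knockouts. The main fit did not pair the arrays by replicate number, and the replicate block did. With the replicate block the counts were 0, 5 and 0, the last in a fit that called 0 of all probes. The block called 1.21% of all probes in TIA1 KO and 5.93% in TIAR KO over WT MEF. Among 2350 values of 47 single ribosomal protein probes under the alternatives, 64 lost and 87 gained their call in the same direction, 11 were called in the opposite direction only under the alternative, and 197 changed sign. Of the called values 1 changed sign, Rpl23, at 0.0494 between the knockouts with a common array median. Rpl14 and Rpl39l kept their calls in TIAR KO over WT MEF under all 12 alternatives of processing and fit and without each array that could be left out.

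Limits are 2 arrays a group, a strain for each genotype, and fewer probes well above background on the TIA1 KO arrays (16021 and 19996) than on the other 4 (23569 to 26295). Saturation was marked for 0 spots.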

Other observations

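Further genes of the lists fell in TIAR KO over WT MEF as the largest falls of their lists. Tcof1, which supports transcription of ribosomal DNA, read 15.22 and 15.10 in WT, 14.89 and 14.97 in TIA1 KO and 14.01 and 14.14 in TIAR KO MEF. It was lowest in TIAR KO MEF, where it fell by 1.09 (limma, adjusted p = 0.0143). That call was lost without WT array 1 or either TIAR KO array (limma, adjusted p = 0.0665, 0.0749 and 0.0611). Mrps15, of the mitochondrial small subunit, read 14.40 and 14.69 in WT, 14.49 and 14.64 in TIA1 KO and 13.49 and 12.86 in TIAR KO MEF. It fell by 1.37 in TIAR KO MEF (limma, adjusted p = 0.0366), a call lost without WT array 1 or 2 or TIAR KO array 2 (limma, adjusted p = 0.0765, 0.119 and 0.101).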
